A study of Homo sapiens with 6 samples.

Results

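The genes described here encode the proteins of the cytosolic ribosome. They were chosen by symbol from the annotation, as protein-coding genes named RPL or RPS with a number (and an A, X or L suffix where there is one) plus RPLP0, RPLP1, RPLP2 and RPSA, leaving out RPS6 kinases, pseudogenes and Y-linked copies. In the series 27455 genes had reads. The rule gave 85 genes, all with reads but RPL10L, 53 of the large and 32 of the small subunit, on 21 chromosomes. Of these, 77 are canonical members and 8 are paralogs of a canonical member. The study compared astrocytes derived from H1, an established human embryonic stem cell line, in 2 regional characters: a forebrain control and ventral midbrain. Each group has 3 libraries, numbered 2, 3 and 4, and no transgene, drug or dose is named in the labels, which give astrocyte as the source and the stem cells as the cell type. All cells come from 1 line, and no label ties the libraries to separate cultures, so the p-values hold for the spread among these samples, which may be technical. RNA was read with QuantSeq, which sequences the 3' end of polyadenylated transcripts, at 11617935 to 15391082 estimated reads per library.

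A cytosolic ribosome has a small subunit, which reads the mRNA, and a large subunit, which joins amino acids, and nearly every protein of each is needed in equal number. Most of these mRNAs begin with a C and a run of pyrimidines, the 5' terminal oligopyrimidine (TOP) tract, through which growth signalling by mTORC1 and the binding protein LARP1 sets their translation and stability. Ribosomal protein transcripts are among the most abundant in most cells, and their level is known to move with growth and proliferation. The libraries are bulk RNA, so fewer cells of a type and less RNA per cell cannot be told apart, and every level is a share of the RNA in its library.

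The sequence shared by the members is shown for those on which the results turn. Each line gives 30 bases of the gene's own strand, 15 before and 15 from an annotated start site onward, from RefSeq (GRCh38.p14), with the tract in capitals. Where a gene had several listed starts, a start with a tract was shown if any had it, as for RPL34 and RPL13. A tract was searched on that strand as a C followed by at least 4 letters that are each C or T. These first 7 genes are among the 9 lower in ventral midbrain libraries in the paired comparison, and RPS4X is the one of them whose annotated start has no tract.
RPL36: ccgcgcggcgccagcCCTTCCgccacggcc
RPL34: aaaggcttttttcttCCTCTTCCggggacg
RPS24: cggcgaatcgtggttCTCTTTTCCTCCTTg
RPL12: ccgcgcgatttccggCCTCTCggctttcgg
RPL13: ttgcggggccgcttcCTTTCCgctcggctg
RPL13A: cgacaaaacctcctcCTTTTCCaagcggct
RPS4X: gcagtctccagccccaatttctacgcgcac

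The windows lie at chr19:5690280-5690309 (RPL36), chr4:108620561-108620590 (RPL34), chr10:78033848-78033877 (RPS24), chr9:127451392-127451421 (RPL12, minus strand), chr16:89560667-89560696 (RPL13), chr19:49487593-49487622 (RPL13A) and chrX:72277234-72277263 (RPS4X, minus strand). The next lines set canonical genes against their paralogs, because the fold changes of the paralogs lay on both sides of 0.
RPL26: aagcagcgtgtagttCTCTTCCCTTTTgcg
RPL26L1: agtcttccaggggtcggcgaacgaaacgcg
RPL22: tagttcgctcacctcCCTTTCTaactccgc
RPL22L1: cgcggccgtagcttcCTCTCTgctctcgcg
RPL36A: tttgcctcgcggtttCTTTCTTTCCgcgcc
RPL36AL: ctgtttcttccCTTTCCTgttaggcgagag
RPS27: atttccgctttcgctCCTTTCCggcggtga
RPS27L: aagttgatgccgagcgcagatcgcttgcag

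RPL26 (chr17:8383179-8383208, minus strand) starts with a tract and RPL26L1 (chr5:172958714-172958743) has none there. RPL22 (chr1:6199581-6199610, minus strand) and RPL22L1 (chr3:170870181-170870210, minus strand) both start with one. In RPL36AL (chr14:49620612-49620641, minus strand) the tract begins before the annotated start, while in RPL36A (chrX:101390996-101391025) it begins at the start. RPS27 (chr1:153990747-153990776) has a tract and RPS27L (chr15:63157463-63157492, minus strand) none.

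The RefSeq table held a start for 68 of the 85 members. Of the canonical members with an entry, 46 of 62 (74.2%) had a tract at the first base of a listed start, against 7.45% of the 10625 tested protein-coding genes with an entry. Among starts, 46 of 77 of canonical members (59.7%) and 4.07% of all 35116 in the table began with one. Allowing the tract to begin within 5 bases of the start, the gene shares were 85.5% and 29.9%. Among the paralogs with an entry, RPL22L1 was the 1 of 6 with a tract at the start. The nuclear-encoded proteins of the mitochondrial ribosome, made in the same cytosol for another ribosome, had it in 6 of 70 genes (8.57%). Translation factors and other mRNAs listed as TOP mRNAs had it in 21 of 24 genes (87.5%). A match describes letters at an annotated start and not the start used in these cells, which 3' reads do not show.

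The members together took 13.2%, 11.4% and 11.4% of all reads in control libraries 2, 3 and 4, and 11.9%, 9.62% and 10.6% in ventral midbrain libraries 2, 3 and 4. The groups overlapped, since ventral midbrain library 2 lay above control libraries 3 and 4, but in each of the 3 same-numbered pairs the ventral midbrain library was lower. The means were 12% ± 1.04 (SD, n = 3) and 10.7% ± 1.14 (SD, n = 3), a difference of -1.30 percentage points (two-sided exact permutation test, p = 0.3, where 0.1 is the smallest that 3 against 3 libraries allow). The difference was -0.70 without control library 2, -0.76 without ventral midbrain library 3 and -1.90 without ventral midbrain library 2, and stayed negative with any 1 library left out. Within pairs the differences were -1.30, -1.78 and -0.81 percentage points (exact sign-flip permutation test, p = 0.25, the smallest that 3 pairs allow). Measured as a share of the authors' deposited TPM, which divides by transcript length, the members took 13% ± 1.30 and 12% ± 1.99 (SD, n = 3), and 2 of 3 pairs were lower in ventral midbrain (exact permutation test, p = 0.6).

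**Figure D1:**
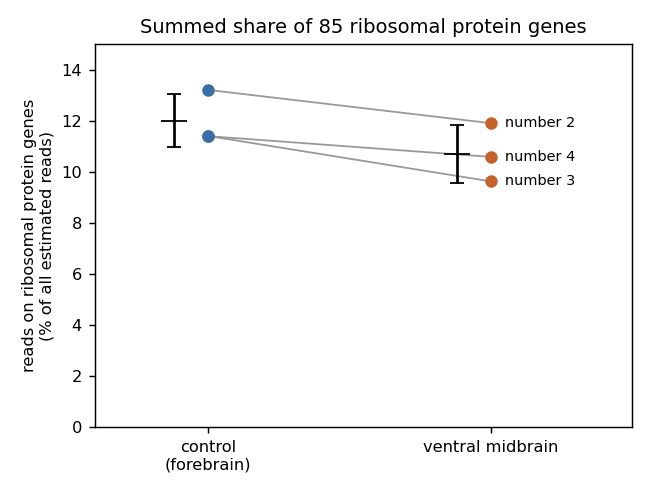
Share of all estimated reads on the 85 ribosomal protein genes (y axis, %) in each library, with lines joining libraries of the same number and black bars giving the mean and SD of each group (n = 3). Each line falls from control to ventral midbrain, while the ranges of the groups overlap (11.4% to 13.2% and 9.62% to 11.9%).

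Of the 85 members 83 had enough reads to be tested, and 0 of these passed. A gene passed where the adjusted p (Benjamini-Hochberg, over all 15984 tested genes) of edgeR's quasi-likelihood fit was under 0.05, as it was for 2.15% of all tested genes, 1.09% lower and 1.06% higher. At an unadjusted p under 0.05, 8 members were lower (6.22% of all tested genes were) and 0 higher (5.79%). The 8 became 1, 15 and 3 without control library 2, 3 or 4, and 22, 2 and 2 without ventral midbrain library 2, 3 or 4. DESeq2 called 2 members lower, RPL34 and RPL36 (of all tested genes it called 4.69%, 2.57% lower and 2.13% higher), and limma voom called 0. With the replicate number as a block, which compares libraries of the same number, 9 members were lower and 0 higher, while 8.13% of all tested genes were called, 4.5% lower and 3.63% higher. No label says what a number shares, and reading the numbers as pairs rests on correlations in these same data. The 9 were RPL36, RPL34, RPS4X, RPS24, RPL12, RPL13, RPL8, RPL13A and RPS18. In this test the log2 fold changes of the 9 lay between -0.51 and -0.36, so a single member moved by less than 1.5-fold.

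The direction was shared by nearly all members. The fitted log2 fold change, ventral midbrain minus control, was negative for 79 of the 83 tested members, while it was negative for 48.3% of all tested genes. The median over the members was -0.25 and that over all tested genes 0.01. The 4 positive values belonged to the paralogs RPL26L1, RPL39L and RPL7L1 and to RPS27, whose reads were mostly missed by the annotation. Over the 76 other canonical members all values were negative, from -0.50 for RPL36 to -0.06 for RPL35A, with a median of -0.27 and quartiles of -0.31 and -0.19. The median standard error of a single member was 0.17, so the quartiles lay closer together than the error of a single member. Ventral midbrain lay below control in each of the 3 same-numbered pairs for 66 of the 83 members, against 20.4% of all tested genes. In 17 of the 83 all ventral midbrain libraries lay below all control libraries (8.75% of all tested genes), and in 0 all lay above (9.17%). Members share libraries, scaling and depth, so their common direction is not a count of separate observations.

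**Figure D2:**
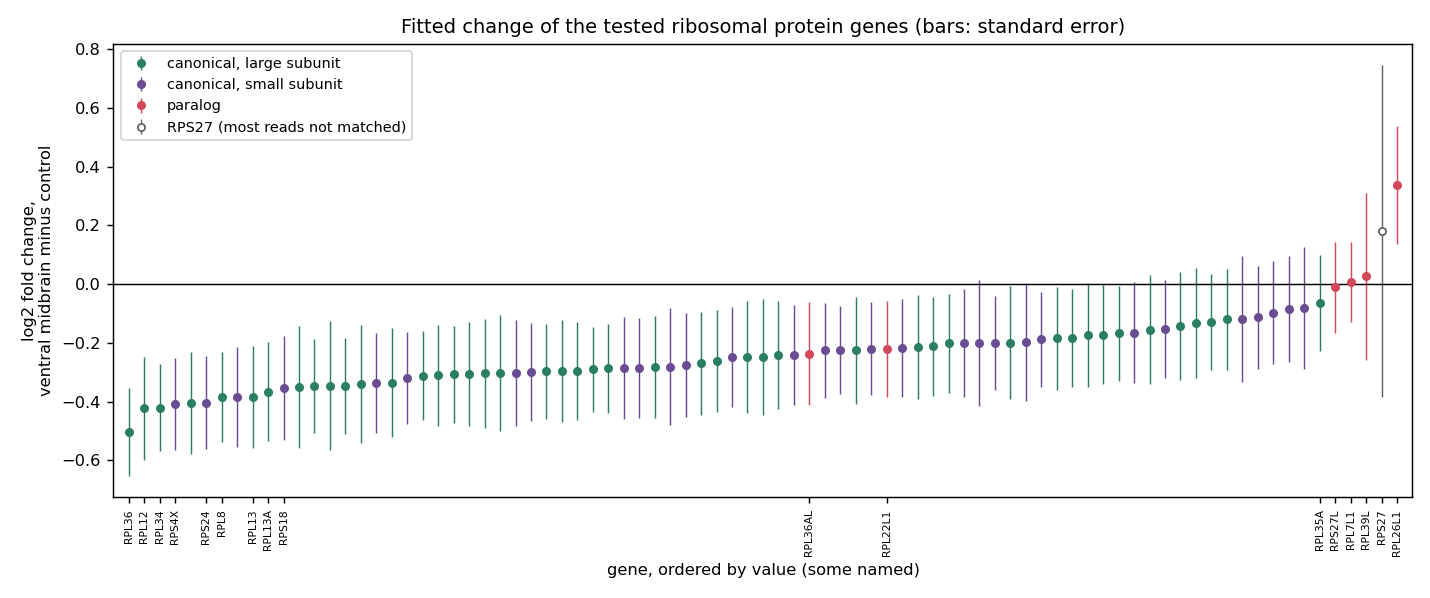
Fitted log2 fold change with its standard error (y axis) for the 83 tested members, ordered by value along the x axis and coloured by subunit, paralogs apart. Names are given for the 9 members lower with the block, RPL35A, RPS27 and the paralogs. All canonical members but RPS27 lie below 0, between -0.50 and -0.06, and 4 of the 6 tested paralogs lie at the right, up to 0.34 for RPL26L1.

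The 46 canonical large subunit members had a median log2 fold change of -0.29, and the 30 of the small subunit, without RPS27, one of -0.23. Large subunit genes took 1.57, 1.62 and 1.5 times the reads of small subunit genes in control libraries 2, 3 and 4 and 1.57, 1.53 and 1.52 times in ventral midbrain libraries. The ratios of the groups overlapped, at 1.56 ± 0.06 and 1.54 ± 0.02 (SD, n = 3; two-sided exact permutation test, p = 0.6).

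Of the large subunit, RPL36 had the most negative value. This gene of a small protein on the solvent side of the subunit (ENSG00000130255, chromosome 19, 5674947 to 5691876, GRCh38) had 700.4, 658 and 695 CPM (reads scaled to library size) in control libraries 2, 3 and 4 and 498, 431 and 519 CPM in ventral midbrain libraries 2, 3 and 4. All ventral midbrain values lay below all control values. The means were 684 ± 23.2 and 483 ± 45.7 CPM (SD, n = 3). The log2 fold change was -0.50 ± 0.15 (SE; by edgeR, adjusted p = 0.144, or 0.00857 when blocked). RPL34, another large subunit protein (ENSG00000109475, chromosome 4, 108620566 to 108630412), had 1609, 1447 and 1505 CPM in control and 1122, 1137 and 1149 CPM in ventral midbrain libraries. Its ventral midbrain values (SD 13.7 CPM, n = 3) lay below all control values, and the log2 fold change was -0.42 ± 0.15 (SE; by edgeR, adjusted p = 0.243, or 0.0239 when blocked).

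RPL12 is a protein at the base of the ribosomal stalk, where elongation factors dock. It had 1106, 861 and 1065 CPM in control and 879.9, 666 and 716 CPM in ventral midbrain libraries 2, 3 and 4. Ventral midbrain library 2 lay above control library 3, so the groups overlapped, and each same-numbered pair fell (log2 fold change -0.42 ± 0.18, SE; by edgeR, adjusted p = 0.353, or 0.0261 when blocked). RPL13 and RPL13A are different proteins of the large subunit despite their names, and RPL13A is also known for silencing inflammatory mRNAs when released from the ribosome. RPL13 had 1831, 1427 and 1667 CPM in control and 1455, 1136 and 1185 CPM in ventral midbrain libraries, overlapping in 1 library (by edgeR, adjusted p = 0.417, or 0.037 when blocked). RPL13A had 3368, 2804 and 3059 CPM in control and 2665, 2076 and 2422 CPM in ventral midbrain libraries, without overlap (by edgeR, adjusted p = 0.43, or 0.0392 when blocked). RPL8, a protein near the peptidyl transferase centre, had 955, 807 and 865 CPM against 733, 632 and 648 CPM, also without overlap (by edgeR, adjusted p = 0.329, or 0.0373 when blocked). RPL32, with the next most negative value among all members after RPS4X at -0.40 ± 0.17 (log2, SE), had 2221, 2241 and 1839 CPM against 1747, 1327 and 1685 CPM and passed neither test (by edgeR, adjusted p = 0.382, or 0.0667 when blocked).

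Of the small subunit, 3 genes passed with the block. RPS4X is encoded on the X chromosome (ENSG00000198034, 72255679 to 72277300) and has a Y-linked counterpart that the rule leaves out. It had 1503, 1335 and 1408 CPM in control and 1184, 991 and 1023 CPM in ventral midbrain libraries 2, 3 and 4. The groups did not overlap, and the log2 fold change was -0.41 ± 0.16 (SE; by edgeR, adjusted p = 0.294, or 0.0252 when blocked). RPS24, one of the genes mutated in Diamond-Blackfan anaemia (ENSG00000138326, chromosome 10, 78033732 to 78056813), had 2690.1, 2264 and 2479 CPM against 1961, 1737 and 1921 CPM. It too had no overlap, and its log2 fold change was -0.40 ± 0.16 (SE; by edgeR, adjusted p = 0.311, or 0.0259 when blocked). RPS18, a protein of the subunit's head, had 2322, 1914 and 2028 CPM against 1946, 1444 and 1512 CPM, with ventral midbrain library 2 above control library 3 (by edgeR, adjusted p = 0.475, or 0.0483 when blocked).

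**Figure D3:**
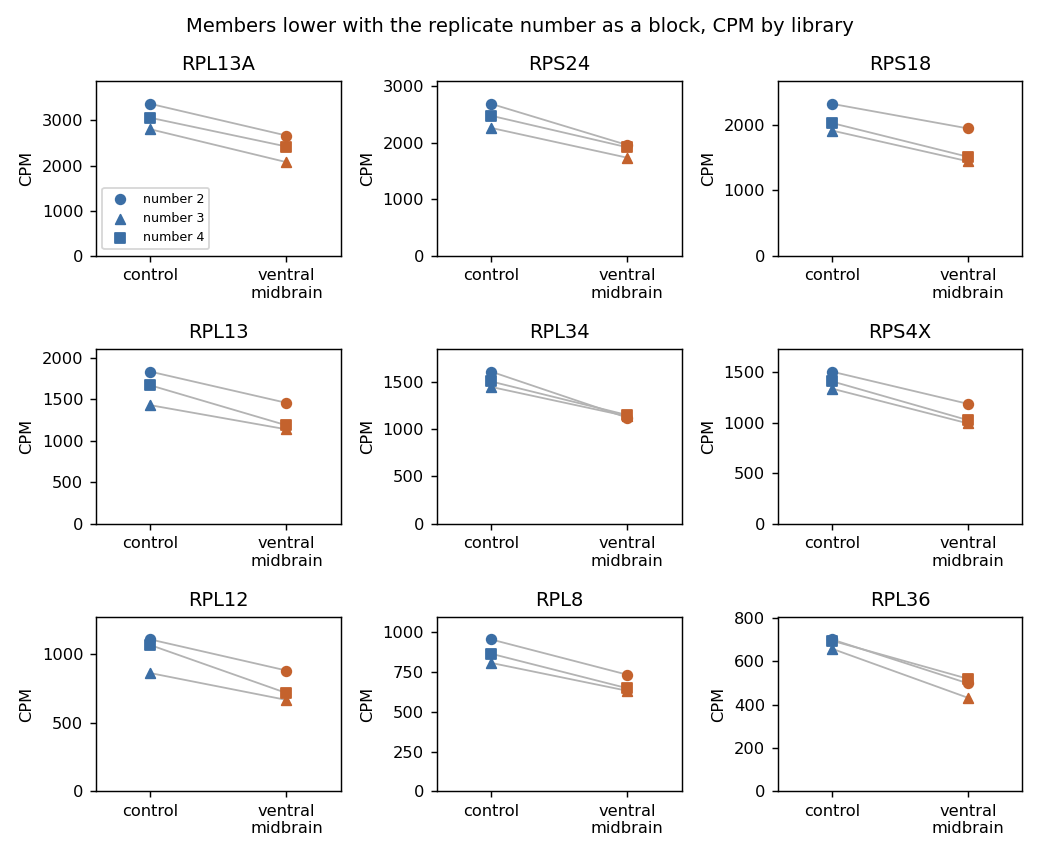
CPM (y axis, from 0) in each library of the 9 members called lower with the replicate number as a block, with lines joining libraries of the same number. Every line falls from control to ventral midbrain, and in RPL12, RPL13 and RPS18 the highest ventral midbrain library lies above the lowest control library.

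Among the smallest differences of canonical members were those of RPL35A and RPS16, with log2 fold changes of -0.06 ± 0.16 and -0.08 ± 0.18 (SE). RPL35A had 1483, 1215 and 1233 CPM in control and 1387, 1155 and 1218 CPM in ventral midbrain libraries. These values overlapped, and the value of -0.06 lies within 2 standard errors of the canonical median of -0.27.

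By level, the 10 highest members took 27.4% of all member reads. A 3' library gives reads from the end of a transcript whatever its length, so these levels are CPM and not per length. RPL41, whose product is among the smallest human proteins (ENSG00000229117, chromosome 12, 56116586 to 56117943), was highest, with 9679, 7116 and 7807 CPM in control and 7741, 5790.5 and 7169 CPM in ventral midbrain libraries. It alone held 6.56% of member reads, and its groups overlapped (log2 fold change -0.25 ± 0.19, SE; adjusted p by edgeR 0.706). Next stood RPL37A with 3680.3 ± 359 CPM in control and 3069 ± 418 CPM in ventral midbrain libraries (SD, n = 3), and RPS29 with 3284 ± 541 and 2864 ± 554 CPM. RPL27A was at 3138 ± 376 and 2761 ± 369 CPM, RPL13A at 3077 ± 282 and 2387 ± 296 CPM, and RPLP1, a protein of the acidic stalk, at 2683 ± 414 and 2429 ± 363 CPM. RPL6 was at 2434 ± 239.9 and 2159.6 ± 277 CPM. RPS27A, made as a fusion with ubiquitin, was at 2552 ± 374 and 2020.1 ± 166 CPM, and RPL23A, at the exit of the peptide tunnel, at 2406 ± 514 and 2095 ± 257 CPM. Among the genes named from RPL37A to RPL23A the values of neighbours overlapped within either group, while RPL41 lay above all of them in every library. RPL13A had groups without overlap.

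The median canonical member had 1291 CPM, and RPS26, at the exit channel of the mRNA, was lowest with 269, 322 and 240.3 CPM in control and 245, 259 and 200.01 CPM in ventral midbrain libraries. Proteins needed in equal number were represented by read counts that differed by over 10-fold between genes. The order depends on the scale: in the deposited TPM, per length, RPS29 was at 19547 and RPL41 at 5928, while RPL27A, among the highest in CPM, was at 229.6. Reads of a 3' library do not settle which transcript of a gene they come from. For example, 94.8% of RPL10A reads were assigned to a transcript annotated as processed and 91.7% of RPL13A reads to 1 annotated for nonsense-mediated decay, and no isoform is reported here.

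RPS27, a zinc-binding protein of the small subunit, had 90, 17 and 73 summed reads in control and 118, 65 and 37 in ventral midbrain libraries. In the authors' deposited table of normalized gene signal its level was 274 times that sum, whereas the other 82 members in the table lay within 5% of their sums. Its deposited values were 22748, 13779 and 20732 in control against 19332, 15726 and 14398 in ventral midbrain libraries, which overlap. On those values its log2 fold change was -0.19, against 0.18 ± 0.57 (SE) from the sums, so the positive value of RPS27 says nothing about its level and most of its reads are absent from the summed share.

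The paralogs had fold changes on both sides of 0: of 6 tested, 3 were negative and 3 positive, with a median of -0.00. RPL26L1, a close copy of RPL26, had 34.7, 36.4 and 30.4 CPM in control and 51.0, 45.8 and 31.5 CPM in ventral midbrain libraries 2, 3 and 4, with 402 to 784 reads per library. Its groups overlapped, as ventral midbrain library 4 lay below control libraries 2 and 3 (log2 fold change 0.34 ± 0.20, SE; by edgeR, adjusted p = 0.587, or 0.265 when blocked). RPL26 itself had 1859, 1481 and 1660.0 CPM against 1444, 1250.4 and 1241 CPM, without overlap (log2 fold change -0.35 ± 0.16, SE; by edgeR, adjusted p = 0.444, or 0.0639 when blocked). Of the reads on both genes, RPL26L1 therefore held 1.83%, 2.40% and 1.80% in control against 3.41%, 3.53% and 2.47% in ventral midbrain libraries. All ventral midbrain shares lay above all control shares, at 3.14% ± 0.58 against 2.01% ± 0.34 (SD, n = 3). The two-sided exact permutation p was 0.1, the smallest that 3 against 3 libraries allow, and 0.5 after Benjamini-Hochberg adjustment over the 5 pairs tested, so the difference fails the correction.

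The other pairs overlapped between groups. RPL7L1, a relative of RPL7, held 8.44%, 10.9% and 9.94% of the pair's reads in control against 9.39%, 12.1% and 11.3% in ventral midbrain libraries, higher within each number (exact permutation test, p = 0.4, adjusted 0.625). Its own level hardly varied, at 132, 136 and 131 CPM against 136, 139 and 126 CPM. RPL39L, known from germ cells and stem cells, held 0.459%, 0.937% and 0.537% against 0.550%, 1.21% and 0.636%, also higher within each number (exact permutation test, p = 0.5, adjusted 0.625). Both libraries numbered 3 stood apart from the others in RPL39L, with 14.5 and 14 CPM against 8.77 to 9.88 CPM. RPL22L1, which is known to rise when RPL22 is lost, held 9.79%, 15.7% and 12.5% against 11.5%, 12.6% and 15.6% (exact permutation test, p = 0.8). RPL36AL held 8.77%, 8.26% and 9.94% against 8.83%, 10.2% and 8.96% (exact permutation test, p = 0.5, adjusted 0.625). In RPL22L1 and RPL36AL the direction differed between the numbers. RPS27L, a p53 target, had 368, 302 and 340.2 CPM against 371, 328 and 304 CPM (log2 fold change -0.01 ± 0.15, SE), and its pair was not tested because RPS27 reads were missing.

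**Figure D4:**
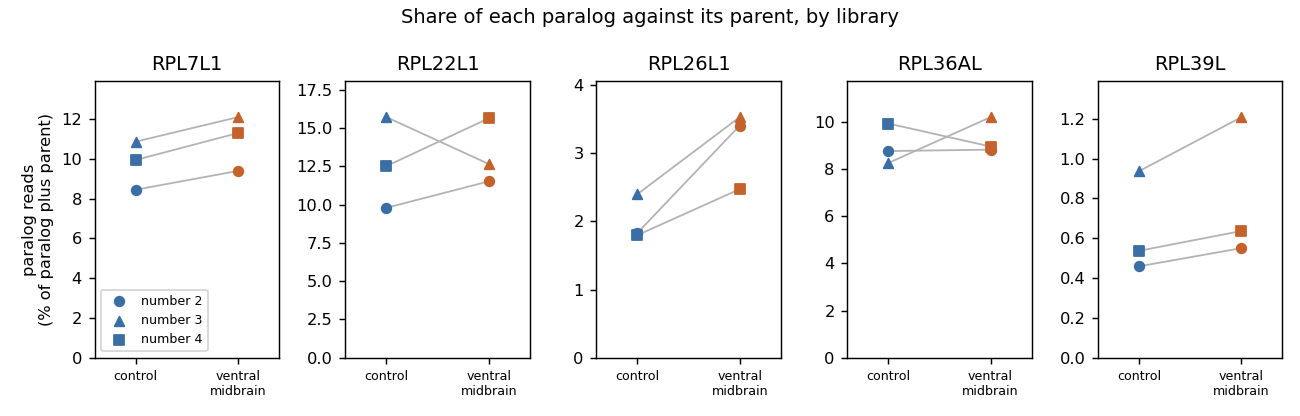
Reads on each paralog as % of the reads on paralog plus canonical gene (y axis, from 0), by library, with lines joining libraries of the same number. In RPL26L1 alone of these 5 do the ventral midbrain libraries (2.47% to 3.53%) lie above all control libraries (1.80% to 2.40%).

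RPL3L, a heart and skeletal muscle paralog, had 6 reads in control library 4 and 0 in the other libraries. RPL10L, a testis paralog, had 0 reads in every library, which at 3 counts allows up to 0.195 to 0.257 CPM per library. Both were too low to be tested.

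Processed pseudogenes resemble these genes and can take their reads. The annotation held 1143 ribosomal protein pseudogenes by symbol, 627 with reads and 112 tested, of which edgeR called 0. They took 0.455%, 0.533% and 0.538% of the reads on members and pseudogenes in control and 0.521%, 0.6% and 0.533% in ventral midbrain libraries (exact permutation test, p = 0.6). RPL41P2 held 19.6% of all pseudogene reads and RPL9P9 held 9.63%. Pseudogenes took 6.07% of the RPL9 family's reads and 1.55% of the RPL41 family's, so RPL9 is the less certain of these. With pseudogene reads added to each gene, the median member fold change was -0.24 and 0 members passed.

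The members were also divided by their tract, where a tract at any listed start of a gene counted. The 45 canonical members with a tract at the start had a median log2 fold change of -0.28, the 7 with one within 5 bases -0.29, the 9 with none -0.22 and the 15 without an entry -0.28. RPS4X, shown above without a tract, stood at -0.41, the lowest of those 9. RPL35A, whose start has a tract, stood at -0.06, the highest of those 45.

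Other genes of the translation machinery are given from lists by role. As background for these and marker lists, 6.22% of all tested genes were lower and 5.79% higher at an unadjusted p under 0.05 by edgeR. DESeq2 called 4.69% of all tested genes, and the block fit called 8.13%. Of 32 tested translation factors and other TOP mRNAs 24 had negative fold changes, with a median of -0.16, and edgeR called 0 (3 at an unadjusted p under 0.05, 1 by DESeq2 and 0 by voom). With the block 3 were lower and 0 higher: TPT1, EEF1D and IPO5. TPT1, a growth-related TOP mRNA, was at 4487 ± 157 CPM in control and 3153 ± 570 CPM in ventral midbrain libraries (SD, n = 3; by edgeR, adjusted p = 0.236, or 0.00957 when blocked). EEF1D, an exchange factor of elongation factor 1, was at 407 ± 27.2 and 286 ± 27.9 CPM (by edgeR, adjusted p = 0.14, or 0.00874 when blocked). IPO5, an importin that carries ribosomal proteins into the nucleus, was low and scattered, at 11.8 ± 10.4 and 0.442 ± 0.705 CPM (by edgeR, adjusted p = 0.371, or 0.00237 when blocked). EEF1A1, the elongation factor that delivers tRNA, was at 6923 ± 1016 and 6110 ± 1240 CPM (log2 fold change -0.18 ± 0.20, SE).

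FAU, which encodes a ribosomal protein fused to a ubiquitin-like protein, was at 1251 ± 128 and 1105 ± 184 CPM (log2 fold change -0.18 ± 0.18, SE). Of 16 tested snoRNA host genes 13 were negative, with a median of -0.20 and 0 called (2 at an unadjusted p under 0.05, 0 by DESeq2 or voom). Of 79 genes of ribosome assembly and rRNA synthesis 44 were negative, with a median of -0.05. In that list edgeR called 0 (5 at an unadjusted p under 0.05, 1 by DESeq2, 0 by voom), and AAMP, at 113 ± 17.1 and 71.7 ± 4.68 CPM, was lower with the block (by edgeR, adjusted p = 0.0683, or 0.00648 when blocked). Nucleolin (NCL), an abundant nucleolar protein of rRNA synthesis, was at 906 ± 33.6 and 778 ± 129.9 CPM, and the methyltransferase FBL at 207 ± 33.1 and 179.7 ± 6.49 CPM, with neither past a test.

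Of 29 mTORC1 and MYC regulators 14 were negative, with a median of 0.00 and 0 called (3 at an unadjusted p under 0.05, 1 by DESeq2, 0 by voom). LARP1, the protein that binds TOP tracts, was at 229 ± 16.2 and 178 ± 11.9 CPM (log2 fold change -0.36 ± 0.14, SE; by edgeR, adjusted p = 0.322, or 0.0678 when blocked). Of the 79 mitochondrial ribosomal proteins 36 were negative, with a median of 0.01 and 0 called (2 at an unadjusted p under 0.05, 0 by DESeq2 or voom). MRPS21, the highest of them, was at 162 ± 30.4 and 171 ± 17.3 CPM. Of 19 p53 targets and genes of nucleolar stress, the response to unassembled ribosomal proteins, 16 were positive, with a median of 0.11 and 0 called (1 at an unadjusted p under 0.05, 0 by DESeq2 or voom). CDKN1A, a p53-induced inhibitor of the cell cycle, was at 145 ± 18.3 and 142 ± 7.99 CPM, and GADD45A, at 126 ± 35.9 and 92.3 ± 32.2 CPM, was lower with the block (by edgeR, adjusted p = 0.646, or 0.0256 when blocked).

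**Figure D5:**
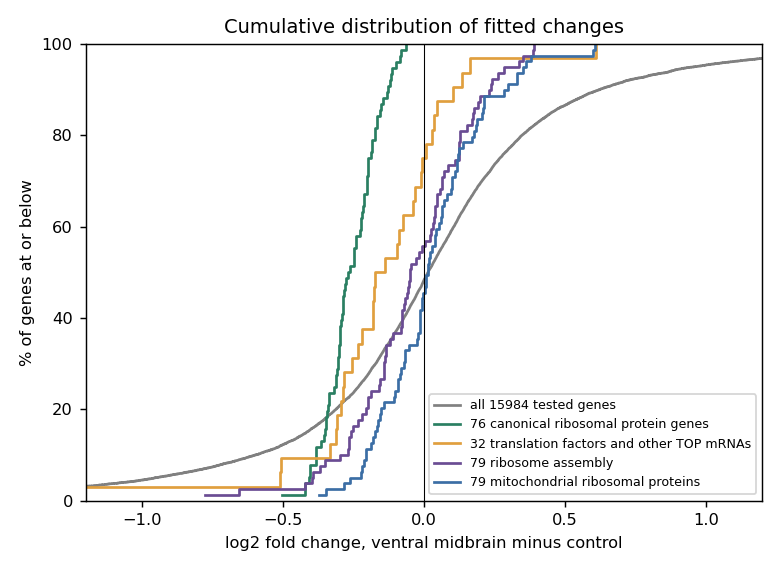
Share of genes at or below each fitted log2 fold change (y axis, %) for all 15984 tested genes and for 4 lists of the translation machinery. The 76 canonical ribosomal protein genes lie wholly left of 0 around a median of -0.27, while assembly factors (median -0.05) and mitochondrial ribosomal proteins (median 0.01) lie around 0.

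Markers of cell types that the cultures could hold moved between the groups as well, and their part in these results was not tested. Of 18 astrocyte markers, all with reads, 10 had positive and 8 negative fold changes. ID3, SLC1A3, NFIA and AQP4 were higher in ventral midbrain libraries and 0 lower, while 4 were higher and 5 lower with the block. The astrocyte markers summed to 16184 to 25380.4 CPM in control and 12540.2 to 17565 CPM in ventral midbrain. CLU, the highest of them, weighs most in these sums, at 12745 ± 5142 and 7214 ± 2534 CPM (SD, n = 3). As a mean of log2(CPM + 1), where each marker counts equally, the list went the other way. It was at 6.59 to 6.78 in control and 6.81 to 6.93 in ventral midbrain libraries. Of 14 neuron markers 13 were tested, with 0 called by edgeR (5 at an unadjusted p under 0.05, 4 by DESeq2, 0 by voom) and 6 lower with the block. Their fold changes were negative for 8 of the 13 and positive for 5. Neuron markers summed to 1358 to 2101 CPM in control and 858 to 1250.1 CPM in ventral midbrain libraries. STMN2, the highest of them by mean, weighs heavily in these sums, at 1061 ± 409 and 449 ± 260 CPM (SD, n = 3). As a mean of log2(CPM + 1) the neuron list overlapped between groups, at 4.25 to 5.19 in control and 3.95 to 4.31 in ventral midbrain libraries. Of 12 fibroblast and mesenchymal markers, all tested, 8 had negative and 4 positive fold changes. Of these COL1A1, PDGFRA, PRRX1 and COL3A1 were lower and 0 higher. With the block 6 were lower and 1, POSTN, was higher, and the sums were 1236 to 1891 and 738 to 949.7 CPM. Of 9 pluripotency markers 3 had enough reads to be tested, TDGF1 had 0 reads, and their sum was 12.3 to 18.2 CPM in control and 12.1 to 22.4 CPM in ventral midbrain libraries. Of 26 cell cycle markers 25 had positive fold changes, with a median of 0.44, and 0 were called (0 at an unadjusted p under 0.05, 0 by DESeq2 or voom) while 9 were higher with the block. Both libraries numbered 3 stood apart, with cell cycle sums of 4239.7 CPM in control and 6045 CPM in ventral midbrain against 1140.0 to 1770.4 CPM in the others. The 13 mitochondrially encoded mRNAs, a sign of RNA quality, took 4.87% to 6.53% of reads in control and 5.04% to 6.46% in ventral midbrain libraries. Without control library 3 the member median was -0.30 and without ventral midbrain library 3 it was -0.20, with 0 members called by edgeR in either case.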

How the data were processed

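Per the labels' protocols, RNA was extracted with TRIzol and made into QuantSeq 3' FWD libraries. The submitters' processing notes name Salmon, the build GRCh38.p13 and DESeq2 1.27.12. The authors deposited Salmon's estimated counts and TPM per transcript, and a table of normalized gene signal. Use of strand in counting is not given in the sources here. Estimated counts were summed per gene over GENCODE transcripts (GRCh38, 90.6% of identifiers matched, 0.992% to 1.12% of reads unmatched) and rounded, filtered with filterByExpr and scaled with TMM factors. Ventral midbrain was tested against control with the robust quasi-likelihood fit of edgeR 4.0.16 and Benjamini-Hochberg adjusted p over 15984 genes. The common biological coefficient of variation was 0.309, and the median over members 0.182. CPM use the TMM-scaled library size, and each standard error is the size of the log2 fold change over the square root of F.

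The members and lists were chosen with earlier results of these data known. Named members are those past a test with or without the block, the 10 highest, the 5 most positive and 5 most negative, all paralogs and those not tested. From the other lists, genes past the test without the block are named, with some of those past it with the block and some of the highest, and RPL35A, RPS16, RPS26 and the parent genes are given as values. Some genes are included in counts but not reported by value. Deviations from the group means correlated at 0.234, 0.345 and 0.204 between libraries numbered 2, 3 and 4. Between other pairs across groups they correlated at most at 0.0237. Deviations cancel out within a group, so positive correlations of same-numbered libraries push the others down. This contrast is therefore not separate evidence of pairing. The numbers were taken to pair the libraries in the block fit and in values within pairs, although no label says what they share. That choice rests on the same data that the block fit tests. The main fit was not paired. Fits were tested on simulated data. Alternatives were RLE and upper-quartile scaling, scaling without the members, no filter, 2 CPM in 3 libraries, DESeq2 1.42.0, limma 3.58.1 (voom), an offset for gene length, the deposited normalized signal on log2(value + 1), added pseudogene reads, protein-coding genes alone, a replicate block and leaving out each library.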

Additional observations from a re-analysis of the deposited data

How the results depend on the processing

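The median member log2 fold change stayed negative in all 18 alternatives, from -0.35 without ventral midbrain replicate 2 to -0.17 without control replicate 2. DESeq2 called 2 members lower and the replicate block 9, while every other fit called 0. For the summed share, subunit ratio, pseudogene share and paralog shares no call at 0.05 was possible, with or without pairing. The smallest p is 0.1 for 3 against 3 libraries (exact permutation test) and 0.25 for 3 pairs (exact sign-flip test). Further calls of the replicate block in the other gene lists stand beside those lists. No scaling moved the median of all genes by as much as 0.1. With 1 library left out, differences of ventral midbrain minus control that changed sign ran as follows: the subunit ratio from -0.054 to 0.0048 (without control replicate 3), and the paralog share from -0.84 to 2.12 for RPL22L1 (negative without control replicate 2 or ventral midbrain replicate 4), -0.094 to 0.82 for RPL36AL (negative without replicate 3 of either group) and -0.051 to 0.30 for RPL39L (negative without ventral midbrain replicate 3). Log2 fold changes near 0 also changed sign with 1 library left out, from -0.10 to 0.060 for RPS27L, -0.024 to 0.048 for RPL7L1, -0.17 to 0.28 for RPL39L and -0.24 to 0.55 for RPS27. RPS27L was at 0.070 with a gene-length offset and 0.037 in the deposited values. RPL7L1 was at -0.0035 with RLE scaling and with DESeq2, -0.0014 with the offset and -0.015 in the deposited values. RPS27 was at -0.19 in the deposited values. The cause was not tested in any of these.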
